A study of Mus musculus with 6 samples.

Results

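The 10 genes described here encode the calcium pumps of the sarcoplasmic reticulum (Atp2a1, Atp2a2, Atp2a3), the membrane peptides that bind those pumps (Sln, Pln, Mrln), and calcium buffers of muscle (Casq1, Casq2, Pvalb, Srl). They were chosen by gene symbol, as the probe sets whose single symbol in the platform annotation is one of these names. Each gene had 1 probe set, so 10 of the 35557 probe sets of the table were used, or 10 of the 19938 genes with a single symbol. Gene expression was measured in tibialis anterior, a limb muscle, on 6 Affymetrix arrays. There were 3 arrays from mice labelled MLC-SOCS-3/C57Bl6J, a name the study uses for a SOCS-3 transgene, and 3 from control C57Bl6J mice. All 6 muscles came from mice of 11 weeks that had been starved for 6 h, and 300 ng of total RNA was labelled from each. The labels do not spell out MLC, and give no sex. They number the replicates without saying that these are different animals, so a p-value here covers only sample-to-sample spread, part of which may be technical.

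In striated muscle, calcium leaves the sarcoplasmic reticulum through release channels to start contraction, and SERCA pumps return it, using ATP, so that the fibre relaxes. Small transmembrane peptides bind the pumps and lower their apparent affinity for calcium or their transport per ATP. Calsequestrins hold calcium inside the reticulum, and parvalbumin binds it in the cytosol of fast fibres. SOCS-3 is an intracellular inhibitor of JAK-STAT signalling. The comparison asks whether transcript levels of this system differ between muscles labelled MLC-SOCS-3 and control muscles.

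Each value is a log2 RMA intensity, so a difference of 1 is a factor of 2 in intensity. A probe set responds by its own probes as well as its transcript, so the 10 levels are not ranked against one another and are described only against 5.99, the median probe set. Of the 10 genes, 9 lay above that level and Sln lay below it. The deposited values reached 15.08, and intensities near this end of the scale, or near the background, understate fold differences. In whole muscle, fewer cells of a type and less RNA per cell cannot be told apart.

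Tissue identity and the transgene were examined first. All 6 skeletal muscle markers had means between 12.87 and 14.59, and none of these had an unadjusted p under 0.05 (limma). Among markers of other cell types, 8 smooth muscle and pericyte genes had means from 4.99 to 11.12, 8 endothelial genes from 8.48 to 9.09, and 9 leukocyte and platelet genes from 3.92 to 6.85. Socs3 measured 7.15 ± 0.09 on the arrays labelled MLC-SOCS-3 and 7.41 ± 0.03 on the control arrays (SD, n = 3 each), with a difference of -0.26 ± 0.07 (SE; limma, adjusted p = 0.80). Socs3 was thus not higher where the label names the transgene. Its MLC-SOCS-3 values (7.07 to 7.25) all lay below its control values (7.37 to 7.43). Groups did not overlap for 11.8% of all probe sets. The sources used here do not say whether the probes lie in the part of Socs3 that the transgene carries, so each direction below holds for the arrays as labelled.

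None of the 10 genes passed the test between the labelled groups. In the limma fit, 0 of the 35557 probe sets (0%) had an adjusted p under 0.05, and the adjusted p-values of the 10 genes lay between 0.81 and 0.99. At an unadjusted p under 0.05 there was 1 gene of 10, Mrln, against 5.92% of all probe sets. Mrln was also the 1 gene of 10 whose groups did not overlap, against 11.8% of all probe sets. Both counts are near the background share and are no result about these genes as a set. Differences were above 0 for 4 genes and below 0 for 6, with a median of -0.0067, against -0.0094 over all probe sets.

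**Figure D1:**
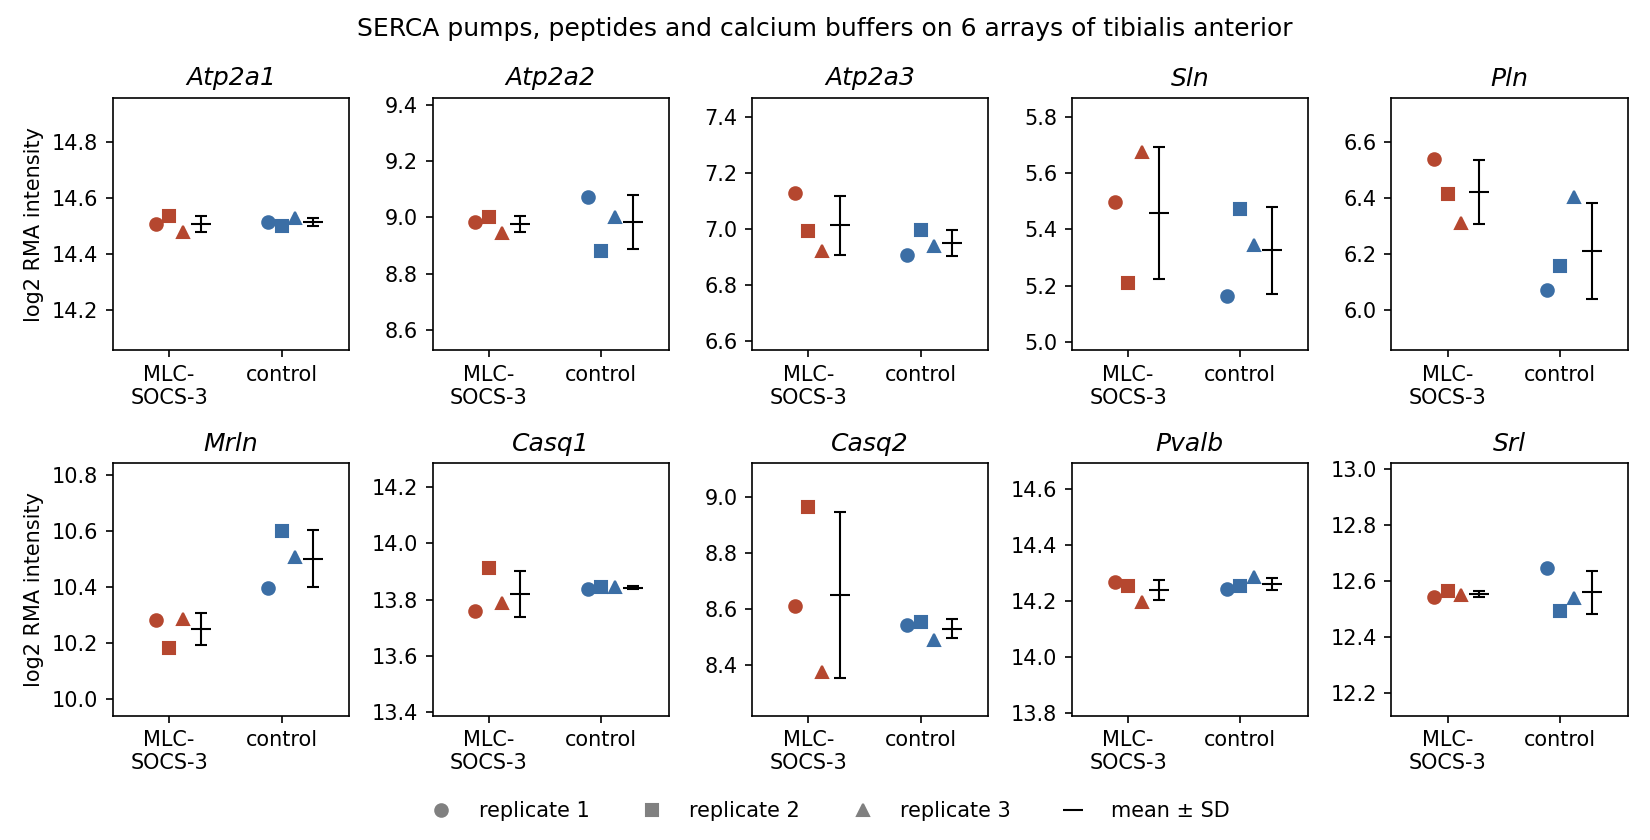
Log2 RMA intensity of each gene on the arrays labelled MLC-SOCS-3 (left of each panel) and control (right), with 1 symbol per array and the mean ± SD of 3 arrays beside them. Every vertical axis spans the same range on the log2 scale, so spreads can be compared between panels. The groups are apart only for Mrln, which lay between 10.18 and 10.28 on the arrays labelled MLC-SOCS-3 and between 10.40 and 10.60 on the control arrays.

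Promoter sequence is shown for 3 genes. Mrln and Pln were taken because their differences were the furthest from 0 among the 10. Atp2a1 was taken because it alone, among the 7 genes with a promoter window, holds a STAT palindrome. The windows run from 250 bases before to 50 bases after the annotated start, 5′ to 3′ on the gene's strand, from RefSeq on GRCm38.p6. Of the 10 genes, 7 were matched, and Atp2a2, Sln and Srl had no window to search. Mrln is at chr10:70204414-70204713 (+ strand), Pln at chr10:53337436-53337735 (+ strand) and Atp2a1 at chr7:126463024-126463323 (- strand). Capitals mark matches to the E-box CANNTG and, in Atp2a1, also to TTCNNNGAA, the palindrome that STAT factors bind. Both strands were searched, and no 2 matches overlapped.
Mrln promoter: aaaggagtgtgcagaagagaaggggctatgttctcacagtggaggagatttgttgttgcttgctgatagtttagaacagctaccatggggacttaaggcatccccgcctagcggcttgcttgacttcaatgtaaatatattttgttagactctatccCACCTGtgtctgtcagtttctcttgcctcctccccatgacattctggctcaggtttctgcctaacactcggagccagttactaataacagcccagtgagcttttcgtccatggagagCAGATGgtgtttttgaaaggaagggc
Pln promoter: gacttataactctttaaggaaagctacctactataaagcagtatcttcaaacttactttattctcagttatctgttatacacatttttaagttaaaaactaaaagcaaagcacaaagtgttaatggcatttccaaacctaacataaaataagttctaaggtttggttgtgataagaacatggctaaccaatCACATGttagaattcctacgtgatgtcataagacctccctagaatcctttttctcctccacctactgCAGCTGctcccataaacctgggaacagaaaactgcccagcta
Atp2a1 promoter: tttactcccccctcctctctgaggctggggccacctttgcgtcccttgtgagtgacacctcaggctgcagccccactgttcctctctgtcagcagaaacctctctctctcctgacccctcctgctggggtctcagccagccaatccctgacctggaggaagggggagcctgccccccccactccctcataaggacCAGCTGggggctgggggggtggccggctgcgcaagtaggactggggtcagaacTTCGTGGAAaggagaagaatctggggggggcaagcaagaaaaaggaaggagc
In Atp2a1 the last match, TTCGTGGAA, starts 2 bases before the annotated start, and it was the only TTCNNNGAA among the 7 genes. That motif occurs in 8.3% of the 32851 RefSeq promoter windows of this length. An E-box was present in 6 of the 7 genes, though not in every window of Pvalb, and 72.3% of all windows hold one. A match is a description of these letters and not a binding site.

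The pumps were close to equal in both groups. Atp2a1 encodes SERCA1, the pump of fast fibres. It read 14.51, 14.54 and 14.48 on the arrays labelled MLC-SOCS-3, against 14.52, 14.50 and 14.53 on the control arrays. The 6 values lay within 0.056 of one another and the groups overlapped. The difference was -0.0069 ± 0.058 (SE), with a 95% interval from -0.15 to 0.13, or from -9.79% to 9.79% in intensity (limma, adjusted p = 0.99). This probe set sits near the upper end of the scale, where real differences are compressed, so the interval limits the measured intensity and not the transcript.

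Atp2a2 encodes SERCA2, the pump of slow fibres, heart and, in its longer isoform, most other cells. It read 8.98, 9.00 and 8.95 on the arrays labelled MLC-SOCS-3, against 9.07, 8.88 and 9.00 on the control arrays. All 3 MLC-SOCS-3 values fell inside the range of the controls, with an SD of 0.028 in MLC-SOCS-3 and 0.097 in control. The difference was -0.0084 ± 0.073 (95% interval -0.19 to 0.17, or -12.2% to 12.6% in intensity; limma, adjusted p = 0.99). With a single probe set, the isoforms of Atp2a2 cannot be told apart.

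Atp2a3 encodes SERCA3, which is known from blood cells, platelets and endothelium more than from muscle fibres. It read 7.13, 6.99 and 6.92 on the arrays labelled MLC-SOCS-3, against 6.91, 7.00 and 6.94 on the control arrays. Replicate 1 of MLC-SOCS-3 was the highest, and the other 5 values lay together. The difference was 0.065 ± 0.078 (95% interval -0.12 to 0.26; limma, adjusted p = 0.91). Leukocyte and platelet markers, whose part in this value was not tested, had 1 of 9 genes higher (Itgam, the integrin of macrophages and neutrophils, at 0.57 ± 0.11) and 1 lower (Cd3g, of the T cell receptor complex, at -0.30 ± 0.09) at an unadjusted p under 0.05, against 1.36% and 3.5% of all genes. The unadjusted p of Cd3g was 0.0513 without control replicate 2 and 0.0526 without control replicate 3. Over the arrays the mean of this marker list, each gene centred on its own mean, was -0.043, 0.014 and 0.14 in MLC-SOCS-3 and -0.028, -0.0051 and -0.081 in control. For the endothelial list it was -0.082, -0.0039 and 0.0014 in MLC-SOCS-3 and 0.081, -0.051 and 0.055 in control. On MLC-SOCS-3 replicate 1, where Atp2a3 was highest, both list means were below 0, though single markers differed. Of the leukocyte and platelet markers, Cd3e had its highest value there (6.40), and Cd3g (3.64) and Cd68 (6.34) had their lowest. Of the endothelial markers, Tie1 was at its highest (8.72), and Kdr (8.40) and Emcn (8.34) were at their lowest. The part of endothelial cells in the Atp2a3 value was not tested either.

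The peptides held the widest differences of the 10 genes, in both directions. Mrln encodes myoregulin, an inhibitor of SERCA1 that skeletal muscle expresses. It read 10.28, 10.18 and 10.28 on the arrays labelled MLC-SOCS-3, against 10.40, 10.60 and 10.51 on the control arrays. Every MLC-SOCS-3 value was below every control value, and the gap between the groups was similar in size to the spread within them. The difference was -0.25 ± 0.078 (95% interval -0.44 to -0.059), a ratio of 0.84 in intensity. Its unadjusted p was 0.018, which ranked 809 among all probe sets and did not pass over all probe sets (limma, adjusted p = 0.81). An exact two-sided permutation test of the 3 against 3 values gave p = 0.1, the smallest this design allows. The unadjusted p of limma was above 0.05 without MLC-SOCS-3 replicate 2 (0.0577) and without control replicate 2 (0.0578).

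Relative to Atp2a1 on the same array, and centred on the mean of the 6 arrays, Mrln stood at -0.091, -0.22 and -0.058 in MLC-SOCS-3 and at 0.018, 0.23 and 0.11 in control. Since the Atp2a1 probe set sits near the top of the scale, this difference follows the Mrln intensities and says nothing of the pump transcript. Mrln lies on chromosome 10. Its 20 nearest measured protein-coding genes, 10 on each side in gene order, had a median difference of -0.055, and 0 of them had an unadjusted p under 0.05 (limma), against 4.86% of all genes.

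Pln encodes phospholamban, the inhibitor of SERCA2 in heart and slow fibres that is released by phosphorylation. It read 6.54, 6.41 and 6.31 on the arrays labelled MLC-SOCS-3, against 6.07, 6.16 and 6.40 on the control arrays. The control value of replicate 3 lay above the lowest and just below the middle MLC-SOCS-3 value, so the groups overlapped. The difference was 0.21 ± 0.11 (95% interval -0.064 to 0.48; limma, adjusted p = 0.86). Without control replicate 3 it was 0.31, with an adjusted p of 0.78, and without control replicate 1 it was 0.14. Pln lies on chromosome 10 as well, with 93 measured protein-coding genes between it and Mrln. Its 20 neighbours had a median difference of 0.014, with 1 of them at an unadjusted p under 0.05, against 4.86% of all genes.

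Sln encodes sarcolipin, a peptide that lets the pump use ATP without moving calcium, and in adult mice it is known mainly from atria and slow or oxidative muscles. It read 5.50, 5.21 and 5.67 on the arrays labelled MLC-SOCS-3, against 5.16, 5.47 and 5.34 on the control arrays. The values of both groups interleaved, and all 6 lay below the median probe set. The difference was 0.13 ± 0.14 (95% interval -0.22 to 0.48; limma, adjusted p = 0.90). At this level a rise or fall of the transcript may be compressed, and the interval does not exclude a difference of up to 39.9% in intensity.

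**Figure D2:**
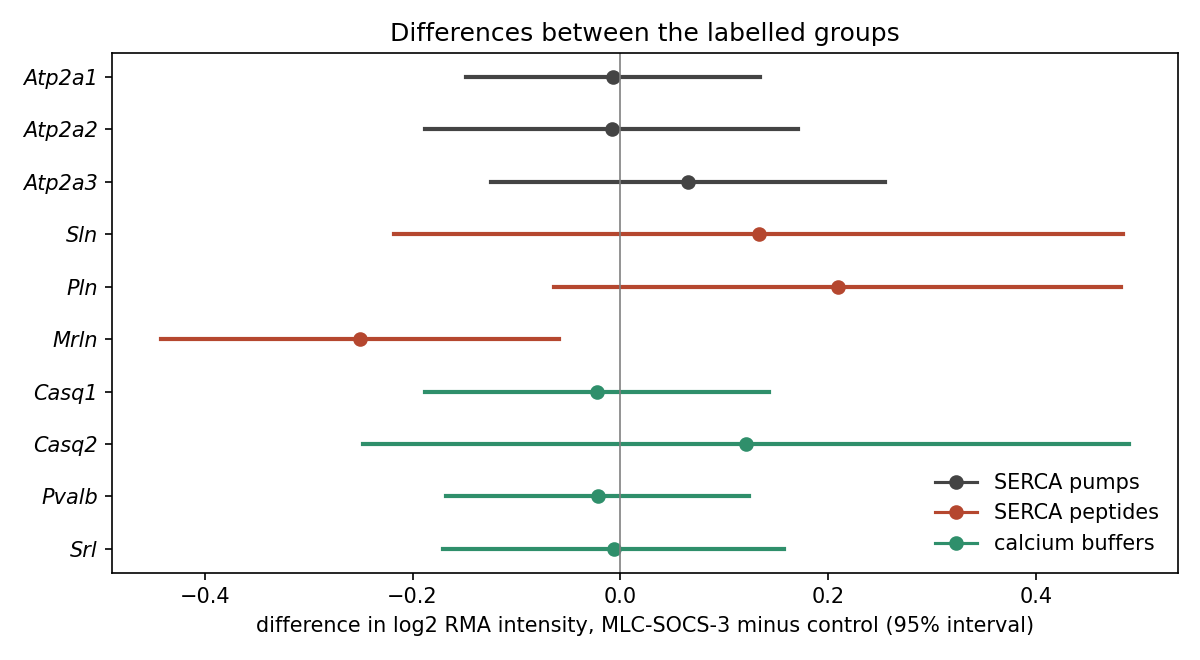
Difference in log2 RMA intensity between MLC-SOCS-3 and control for each gene (point), with its 95% interval from limma (line). The interval of Mrln, from -0.44 to -0.059, is the only one of the 10 that leaves out 0, and its adjusted p over all probe sets was 0.81. The intervals of Sln, Pln and Casq2 are the widest.

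For each peptide, the 3 genes with the most alike profile over the 6 arrays were found among 11400 genes above the median probe set, by the mean absolute difference between centred values. For Mrln these were Vsig10l (0.018), Ocel1 (0.023) and Wnt10b (0.028). Wnt10b, a secreted signalling protein, read 6.12, 6.07 and 6.09 in MLC-SOCS-3 and 6.24, 6.38 and 6.36 in control. For Pln they were Gm10825 (0.034), Stat5b (0.036) and Xrn1 (0.042). Stat5b, a transcription factor that JAK kinases activate, read 10.73, 10.61 and 10.47 in MLC-SOCS-3 and 10.29, 10.43 and 10.53 in control, the same order of the 6 arrays as Pln. For Sln they were Myo5a (0.034), Myo19 (0.051) and Caap1 (0.053). These genes were picked by search among many over only 6 arrays, and how near a match chance would give was not tested. None of the 9 genes passed limma's test (adjusted p between 0.80 and 0.91).

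Among the buffers, Casq2 varied most between arrays, and the group means of the other 3 differed by at most 0.023. Casq1 encodes the calsequestrin of fast fibres. It read 13.76, 13.91 and 13.79 on the arrays labelled MLC-SOCS-3, against 13.84, 13.85 and 13.85 on the control arrays. The control values lay inside the MLC-SOCS-3 range. The SD was 0.081 in MLC-SOCS-3 and 0.0055 in control, and the difference was -0.023 ± 0.068 (95% interval -0.19 to 0.14; limma, adjusted p = 0.97).

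Casq2 encodes the calsequestrin of heart and slow fibres. It read 8.61, 8.96 and 8.37 on the arrays labelled MLC-SOCS-3, against 8.54, 8.55 and 8.49 on the control arrays. Replicate 2 of MLC-SOCS-3 was the highest of the 6 and replicate 3 the lowest, with the controls between them. The SD was 0.30 in MLC-SOCS-3 and 0.034 in control. The difference of 0.12 ± 0.15 (95% interval -0.25 to 0.49; limma, adjusted p = 0.91) changed sign, to -0.037, without MLC-SOCS-3 replicate 2. Casq1 was highest on that array too, at 13.91.

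Pvalb encodes parvalbumin, the cytosolic buffer that speeds the relaxation of fast fibres. It read 14.27, 14.25 and 14.20 on the arrays labelled MLC-SOCS-3, against 14.24, 14.25 and 14.29 on the control arrays. The groups overlapped, and the difference was -0.022 ± 0.060 (95% interval -0.17 to 0.12, or -11.0% to 8.98% in intensity; limma, adjusted p = 0.97). Srl encodes sarcalumenin, a calcium-binding glycoprotein of the reticulum. It read 12.54, 12.57 and 12.55 on the arrays labelled MLC-SOCS-3, against 12.65, 12.49 and 12.54 on the control arrays. Its difference was -0.0065 ± 0.067 (95% interval -0.17 to 0.16; limma, adjusted p = 0.99).

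The spread between arrays of a group set the precision of each value. Above a level of about 4, the median within-group SD over all probe sets was lower at higher levels. Casq2 stood apart with an SD of 0.21, against a median of 0.087 over the 3204 probe sets whose mean lay within 0.5 of its own, and 92.6% of these had a smaller SD. For Casq1 the share with a smaller SD was 78.6% and for Mrln 60.3%. Atp2a3 lay at the other end, with 22.3%. The SDs of Atp2a1 (0.022) and Pvalb (0.031) were the smallest of the 10, and the SEs of limma, 0.058 and 0.060, are wider because they borrow the spread of all probe sets.

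**Figure D3:**
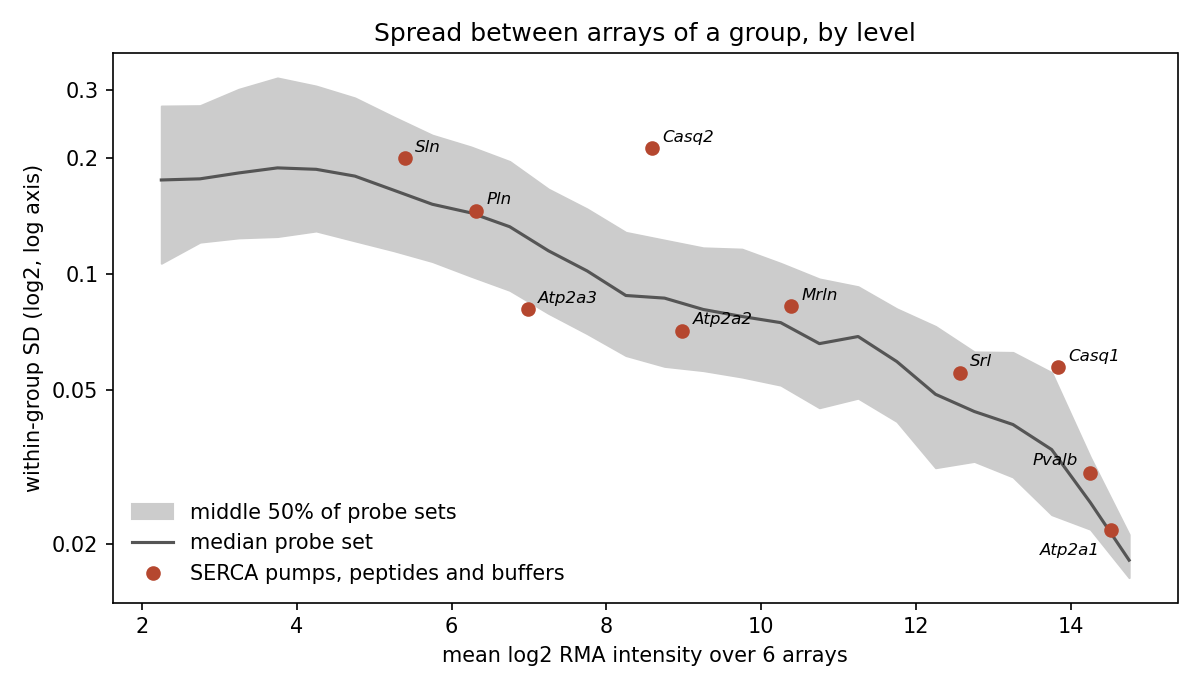
Within-group SD (log axis) against the mean log2 RMA intensity for the 10 genes (points), with the median and the middle 50% of all probe sets by level (line and band, bins of width 0.5). Casq2, at an SD of 0.21, lies far above the band, Casq1 just above it and Atp2a3 just below it, and Atp2a1, at 0.022, lies close to the line.

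The rest of the calcium system was described with 4 lists of other genes. Of 5 measured SERCA regulators, 0 had an unadjusted p under 0.05 (limma), against 4.86% of all genes. The median difference was 0.043, against -0.016 over all genes. Hax1, which binds phospholamban in heart cells, was at 0.10 ± 0.060 (SE) and Ppp1r1a, an inhibitor of protein phosphatase 1, at 0.15 ± 0.11. S100a1, which raises the activity of the pump and the release channel, was at -0.058 ± 0.063, and Ppp1r3a, a glycogen-targeting subunit of protein phosphatase 1, at 0.043 ± 0.061. The list names Strit1, Erln and Arln had no probe set under those symbols. Of 12 other calcium-binding proteins, 0 had an unadjusted p under 0.05, with a median of 0.019. Its genes with the smallest p were the chaperones Hsp90b1 (0.13 ± 0.095), Canx (0.078 ± 0.073) and Hspa5 (0.081 ± 0.090), and Calb2 (0.19 ± 0.21), which lay below the median probe set.

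Of 18 genes of calcium release and entry, 0 had an unadjusted p under 0.05 (limma), against 4.86% of all genes. Of the 18, 12 were below 0 and the median was -0.035, against a median of -0.016 over all genes. Cacna2d1, a subunit of the calcium channel, was at 0.11 ± 0.066, and Cacng1, another subunit, at -0.14 ± 0.084. Jph1, which ties the reticulum to the surface membrane, was at -0.10 ± 0.061, and Orai1, the channel of store-operated entry, at -0.12 ± 0.076. Of 9 other pumps, exchangers and uptake genes, 1 was higher at an unadjusted p under 0.05 and 0 were lower, against 1.36% and 3.5% of all genes. This was Atp2b3, a calcium pump of the surface membrane best known from neurons. It read 7.66, 7.79 and 7.68 on the arrays labelled MLC-SOCS-3, against 7.32, 7.44 and 7.50 on the control arrays, with a difference of 0.29 ± 0.079 (limma, adjusted p = 0.80). Atp2b2, Slc8b1 and Mcu were at -0.11 ± 0.074, 0.079 ± 0.082 and -0.056 ± 0.059. With each array centred on its median, the split of all genes at that threshold was 389 higher and 548 lower, in place of 271 and 698, and the counts of these lists did not move.

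**Figure D4:**
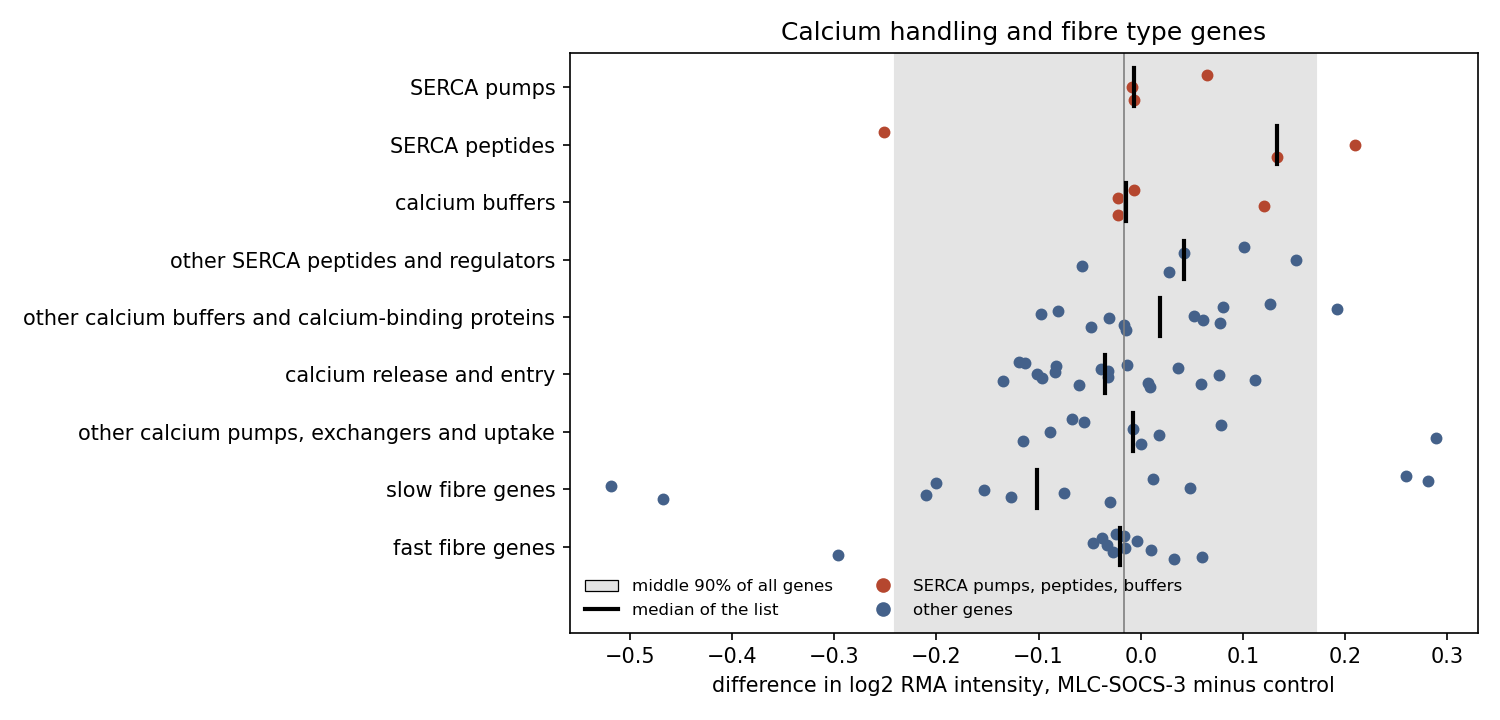
Differences in log2 RMA intensity between MLC-SOCS-3 and control for each measured gene (points, spread vertically for legibility) of the SERCA pumps, peptides and buffers and of the lists of other genes, with each list's median (bar). The band holds the middle 90% of all genes, from -0.24 to 0.17. Mrln, Pln, Atp2b3, Calb2, Myh2 and some slow fibre genes lie outside it, and the pumps lie near 0.

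Atp2a2, Pln, Sln and Casq2 are expressed most in slow or oxidative fibres, so fibre type genes were set beside them. Of 12 slow fibre genes, 1 was higher (Mybpc1, slow myosin-binding protein C, at 0.26 ± 0.058) and 1 lower (Myoz2, a Z disc protein that binds calcineurin, at -0.52 ± 0.21) at an unadjusted p under 0.05 (limma), against 1.36% and 3.5% of all genes, and the list median was -0.10. Without control replicate 1 the difference of Myoz2 was -0.28, and its unadjusted p was above 0.05 without MLC-SOCS-3 replicate 1 (0.117), 2 (0.0777) or 3 (0.0927). Tnnt1 and Myh7b were at -0.21 ± 0.088 and -0.20 ± 0.091. The mean of the list, each gene centred on its own mean, was -0.15, -0.0053 and 0.0035 in MLC-SOCS-3 and 0.23, -0.11 and 0.027 in control. The list mean was thus highest on control replicate 1, though not every gene of the list was high there. Csrp3 (10.67), Myoz2 (10.23), Myl3 (10.46), Tnni1 (6.41) and Ankrd2 (12.27) had their highest values on that array. Only Tnnc1 (7.54) had its lowest there. Control replicate 1 also had the highest Atp2a2 value, 9.07, and the lowest Pln and Sln values, 6.07 and 5.16. Whether fibre make-up has a part in these values was not tested. Of 12 fast fibre genes, 0 had an unadjusted p under 0.05, with a median of -0.020. Myh2, the myosin of type IIa fibres, was at -0.30 ± 0.15 and, without control replicate 1, at -0.12. Myh1, Tnni2 and Mybpc2 were at 0.060 ± 0.058, -0.046 ± 0.063 and -0.038 ± 0.062. Smooth muscle and pericyte markers, from tissue that also expresses Pln, had a list mean of -0.042, 0.030 and 0.022 in MLC-SOCS-3 and 0.045, -0.00083 and -0.053 in control, with 0 of 8 genes at an unadjusted p under 0.05. Their part in the values of Pln was not tested.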

How the data were processed

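The authors deposited log2 intensities, 1 for each probe set on each array. Per the submitters' processing notes, these come from RMA, run in Affymetrix Expression Console. No version or genome build is given in the sources used here. RMA consists of background correction, a common distribution for the arrays and a summary over probes. Fold differences are understated at low and at very high intensities. Array medians lay between 5.98 and 6.04, and no further scaling was applied. The values carry no detection calls or depth, so the 6 arrays limit the precision. At most 36 values were identical between any pair of arrays.

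The platform annotation listed 23410 of 35557 probe sets, of which 21789 had 1 symbol and 1621 several. The other 12147 are unnamed here. Entrez identifiers matched 21698 probe sets to current symbols of GRCm38.p6. A gene was represented by its brightest probe set.

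Groups were compared with the two-sided moderated test of limma 3.58.1 (R 4.3.3; default lmFit and eBayes) over all probe sets, with Benjamini-Hochberg adjustment and a threshold of 0.05. Differences are MLC-SOCS-3 minus control, with moderated SEs and 95% intervals. On simulated data for this comparison (35557 probe sets, 3 simulations) the fit called 89.3% of 2-fold and 28.3% of 1.5-fold changes, with at most 5 false calls. The changed probe sets were drawn only from those above the median level, so these shares do not cover Sln. Simulated variances differ less among probe sets than real ones do.

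Every one of the 10 genes was described. From each list of other genes, up to 4 with the smallest p were named, and 3 most alike genes for each peptide. Of the marker lists, genes at an unadjusted p under 0.05 were also named, a choice made once values were known. The genes and lists were chosen with earlier results of these data known, so no list was tested. Alternatives were another scaling, filter, variance model or test, a block by replicate number, and leaving out each array.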

Additional observations from a re-analysis of the deposited data

How the results depend on the processing

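In the 14 alternatives, none of the 10 genes passed the test, and 129 of 139 differences kept their direction. Sln gave no value where only probe sets above the median level were fitted, and no gene had another probe set to try in its place. Mrln stayed between -0.30 and -0.20, Pln between 0.14 and 0.31, Sln between 0.026 and 0.26, and Atp2a3 between 0.0084 and 0.11. With each array centred on its median, 3 differences changed sign: Atp2a1 (0.0125), Atp2a2 (0.011) and Srl (0.013). Leaving out 1 array at a time gave ranges that crossed 0 for Atp2a1 (-0.020 to 0.0074), Atp2a2 (-0.061 to 0.035), Casq1 (-0.069 to 0.0073), Casq2 (-0.037 to 0.26) and Srl (-0.039 to 0.037). Limma called 0 probe sets in every planned setting except without control replicate 2, which gave 1, a range of 0 to 1 over the arrays left out. With listed probe sets only, a mean-variance trend and robust moderation, chosen after seeing the data, it called 11 of 23410, none of them among the 10 genes, and Mrln had an adjusted p of 0.47. The cause was not tested. Same-numbered arrays of both groups did not deviate together (correlations between -0.043 and -0.018, against -0.038 to 0.064 for unlike numbers). This shows no shared deviation by number, and cannot exclude a pairing that left none in these values. With the replicate number as a block, limma called 0 probe sets, and the unadjusted p of Mrln was 0.0538. The counts of genes without overlap and of list genes were recomputed only with each array centred on its median, and did not move. Leaving out arrays for 6 list genes, an alternative added after seeing the data, changed no direction. Signal near the top of the scale limits what Atp2a1 and Pvalb can show. Sln lay below the median probe set and may be limited by the background, whose level was not measured.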

Other observations

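Atp2a2 and Myl3, the slow myosin light chain, had nearly the same order over the 6 arrays, a pair chosen after their values were seen. Myl3 read 10.01, 9.96 and 9.63 on the arrays labelled MLC-SOCS-3 and 10.46, 9.22 and 10.32 on the control arrays. Atp2a2 read 8.98, 9.00 and 8.95 in MLC-SOCS-3 and 9.07, 8.88 and 9.00 in control. Both genes were highest on control replicate 1 and lowest on control replicate 2. This was not particular to the pair or to slow fibre genes. Srl (12.65 and 12.49), Mb (14.13 and 13.91), Acta2 (10.68 and 10.37) and Tek (8.75 and 8.48) were highest and lowest on the same arrays. Not all slow fibre genes shared this order. Tnnc1 was lowest on control replicate 1 (7.54) and highest on control replicate 2 (7.89), and Myh7 read 6.19 and 6.40 there.

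MLC-SOCS-3 replicate 2 held the highest value of the 6 arrays for Casq2 (8.96) and Casq1 (13.91) and the lowest for Mrln (10.18).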
